A study of Xenopus laevis with 6 samples.

Results

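Sox genes other than sox17 were followed in RNA of primordial germ cells (PGCs) and endoderm cells of Xenopus laevis embryos at stages 12 to 14. They were taken as every row whose gene symbol began with sox and a number, sox17 excepted. The table tagged v9.1 held 16 such gene models of 9 symbols among 10364 gene models, and the table tagged v7.1 held 12 of 9 symbols among 7902, so that 11 symbols were measured in all. The v7.1 table gives counts of the same 6 libraries on another set of gene models and is no independent measurement. There were 3 PGC libraries and 3 libraries of stage-matched endoderm, with no genotype or treatment given for either. Each group's libraries were made from 1 ng aliquots of ribosomal-RNA-depleted RNA, and the labels name no separate cell collections, so the p-values reflect variation among libraries that could be purely technical. Another 6 Sox symbols listed by RefSeq for Xenopus_laevis_v10.1 (sox1, sox10, sox12, sox14, sox18 and sox21) were not analysed here.

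Sox proteins are transcription factors that bind and bend DNA through an HMG box, usually together with a partner factor. Subfamilies are defined by the relatedness of that box: SoxB1 factors maintain neural and pluripotent progenitors, SoxC factors act in neuronal differentiation, SoxD factors lack a transactivation domain of their own, SoxE factors act in neural crest, gonad and cartilage, and SoxF factors act in endoderm and blood vessels. In Xenopus, the T-box factor VegT switches on sox7, a SoxF gene, and sox7 in turn can activate Nodal-related genes of the endoderm. Xenopus laevis is allotetraploid, so most genes exist as a pair of homeologs, named L and S after the longer and shorter chromosome sets.

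PGC libraries held 14.55 to 16.87 M counts of v9.1 gene models and endoderm libraries 9.942 to 28.3 M, with endoderm replicate 3 the shallowest. Levels are CPM, read counts scaled to library size with TMM factors. Differences are log2 ratios, PGC over endoderm, with Benjamini-Hochberg adjusted p, from edgeR's quasi-likelihood fit of the whole table. Their standard errors were derived from the ratio and the F statistic of the test, and are approximate where a group is near 0. CPM are not corrected for transcript length, so levels of different genes are not strictly comparable. The subfamily sums, pair shares, likeness between genes and remarks on sparse rows below use such uncorrected levels. Germ plasm markers followed the labels, with 6 of 6 gene models higher in PGCs, and 6 of 7 in v7.1. In v9.1 they summed to 134895 to 136498 CPM in PGC libraries and 631 to 684 CPM in endoderm libraries. Over all v9.1 gene models 12.6% were higher and 16.8% lower, and 12.8% and 16.1% in v7.1. Endoderm markers followed them in part. Of 16 v9.1 gene models 10 were lower in PGCs, as were 10 of 16 in v7.1. Another 2, both of gata4, were higher in v9.1, and 0 in v7.1. Cyclic loess scaling, which lets the scaling of a library vary with expression level, gave 4 lower and 3 higher in v9.1. Leaving out PGC replicate 2, PGC replicate 3, endoderm replicate 1 or endoderm replicate 2 left 1 of the 2 higher. The endoderm marker gene models of v9.1 summed to 9636 to 9882 CPM in PGC libraries and 24206 to 24422 CPM in endoderm libraries. Most of both sums was a2m, which averaged 7025 CPM across PGC libraries and 19740.5 CPM across endoderm libraries. None of the 16 gene models was at 0 in either group. In such bulk samples fewer cells of a type and less RNA per cell cannot be told apart.

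Of the v9.1 Sox gene models, 7 were higher in PGCs, 2 were lower and 7 did not pass the test (adjusted p below 0.05). Those that rose belonged to SoxF (sox7), SoxB1 (sox2 and sox3), SoxE (sox8 and sox9) and SoxC (sox11), and both that fell belonged to SoxD (sox13 and sox5). Across all v9.1 gene models 29.3% were called in either direction, 12.6% higher and 16.8% lower, so that 43.8% of the Sox gene models were called higher where 12.6% of all were. The median log2 difference was 0.42 over the 16 Sox gene models and 0.07 over all gene models. The PGC and endoderm libraries did not overlap for 11 of 16 Sox gene models, with PGC above for 8 and below for 3. Over all gene models 48.2% did not overlap, 24.5% with PGC above and 23.7% with PGC below. The authors' deposited table, whose column headers name no test, listed 8 Sox gene models as higher and 2 as lower in PGCs at an FDR below 0.05. Leaving out single libraries gave 3 to 8 higher, with 3 without PGC replicate 1 and 4 without PGC replicate 3, and 2 lower throughout.

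**Figure D1:**
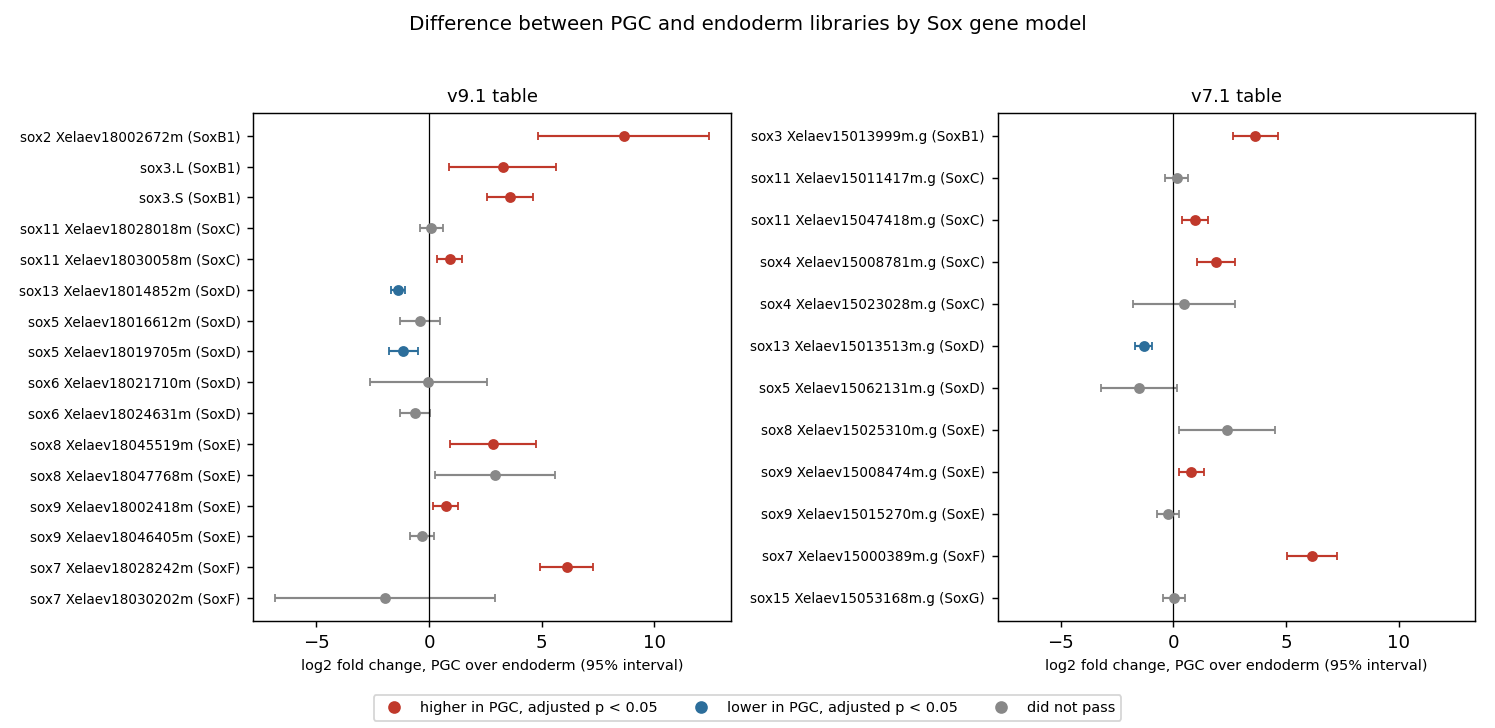
Log2 fold change of PGC over endoderm for every Sox gene model, with its 95% interval from the edgeR fit, in the v9.1 table (left, 16 gene models) and the v7.1 table (right, 12 gene models); red marks gene models higher and blue those lower in PGCs at an adjusted p below 0.05, grey those that did not pass. sox2 and 1 sox7 gene model lie farthest to the right, and the called points left of 0 are sox13 and sox5.

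The make-up of Sox RNA by subfamily differed between the cell types. All 16 v9.1 gene models summed to 1147, 1040 and 1173 CPM in PGC replicates 1, 2 and 3 and 977, 1192 and 1024 CPM in endoderm replicates 1, 2 and 3, and these ranges overlapped. The 12 v7.1 rows summed to 1191, 1029 and 1178 CPM in PGC libraries and 756, 834 and 763 CPM in endoderm libraries, without overlap. These totals cover different rows: v7.1 lacks sox2 and sox6, and v9.1 lacks sox4 and sox15. For sox3, sox5, sox7 and sox8 v7.1 holds 1 row each and v9.1 holds 2. Rows in both also differ in level. sox13 averaged 514 CPM in endoderm and 195 CPM in PGCs in v9.1, and 237 and 94.6 CPM in v7.1. SoxD rows of v7.1 averaged 102 CPM in PGCs and 259 CPM in endoderm. In v9.1 SoxF gene models summed to 270.2 ± 44.2 CPM in PGCs and 7.23 ± 6.08 CPM in endoderm (SD, n = 3 each, here and below). SoxB1 gene models summed to 120.4 ± 7.62 CPM in PGCs and 10.1 ± 6.22 CPM in endoderm. SoxD gene models went the other way, with 299.7 ± 40.5 CPM for PGCs and 695 ± 75.2 CPM for endoderm. SoxC summed to 162 ± 32.5 CPM in PGCs and 121 ± 13.3 CPM in endoderm, and SoxE to 267 ± 40.1 CPM for PGCs and 232 ± 53.2 CPM for endoderm. The libraries of the groups did not overlap for SoxB1, SoxC, SoxD and SoxF sums and overlapped for SoxE. For SoxC they nearly met, at 130 CPM in PGC replicate 2 and 129 CPM in endoderm replicate 3. These sums weight long transcripts more heavily, and no test was made on them because the members were chosen with results known.

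**Figure D2:**
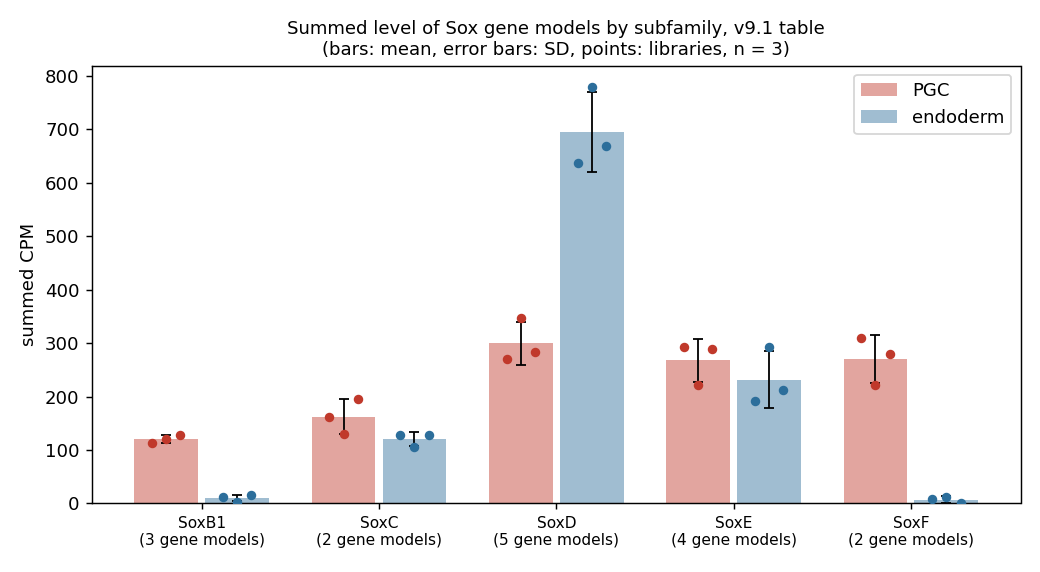
Summed CPM of the v9.1 Sox gene models in each subfamily (bars: mean, error bars: SD, points: the 3 libraries of each group), with PGC left of endoderm. In endoderm SoxB1 averaged 10.1 CPM and SoxF 7.23 CPM, and SoxD was lower in every PGC library.

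sox7, the SoxF gene in the title of the series, was carried by a single gene model of its pair in PGCs. Xelaev18028242m stood at 307, 222 and 279 CPM in PGC libraries, from 5779, 3655 and 4539 counts, and at 4.04, 6.51 and 0.34 CPM in endoderm libraries, from 104, 117 and 3 counts. Every PGC library was far above every endoderm library. The difference was 6.10 ± 0.53 on the log2 scale, with a 95% interval of 4.94 to 7.26 and an edgeR adjusted p of 3.1e-06, and it ranged from 5.72 to 6.68 over 13 alternative settings. It ranked 68 among the 10364 gene models by fold change. Gene models in the same decile of mean level had a median log2 difference of -0.35. Some deciles of lower level leaned toward PGCs. The median was 0.61 in that of sox2, 0.40 for sox8 Xelaev18045519m, 0.31 for sox3.L and 0.23 for sox3.S.

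The other sox7 gene model, Xelaev18030202m, had 52, 0 and 0 counts in PGC libraries and 129, 102 and 1 counts in endoderm libraries. PGC replicate 1 held all of its PGC counts, and endoderm replicate 3 was almost empty of it. Its log2 difference was -1.96 ± 2.24 with an edgeR adjusted p of 0.571, and the 95% interval of -6.84 to 2.92 allows a large change in either direction. With PGC replicate 1 left out no PGC count remained, and the edgeR adjusted p was 0.114. Over 13 settings, edgeR fits and DESeq2's Wald test together, the adjusted p was 0.0903 to 0.738.

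The makeup of the sox7 pair therefore differed between the cell types. Xelaev18028242m gave 99.1%, 100% and 100% of the pair's counts in PGC replicates 1, 2 and 3, and 44.6%, 53.4% and 75.0% in endoderm replicates 1, 2 and 3. The endoderm replicate 3 share rests on 4 counts, with an exact 95% binomial interval of 19.4 to 99.4%, while the other endoderm intervals were 38.1 to 51.3% and 46.6 to 60.2%. The log2 PGC over endoderm ratio of Xelaev18028242m exceeded that of its pair by 9.23 ± 1.49 (95% interval 5.84 to 12.6), with an edgeR adjusted p of 0.00652 over 3512 symbols with exactly 2 gene models, of which 9.74% were called. The call was kept when each library was left out in turn, at 8.32 to 14.95, the highest without PGC replicate 1, where a group is at 0 and the fitted value is no bound. The v7.1 table held a single sox7 row, labelled sox7.L in its homeolog column. Its counts were within 98.8 to 100% of those of Xelaev18028242m in every library, and its log2 difference was 6.15 ± 0.52 (edgeR adjusted p = 9.3e-07).

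The genes whose levels over the 6 libraries lay nearest to those of Xelaev18028242m were tspan1, raver1 and cpeb1, which were picked out once values were known. Their Euclidean distances on the log2 CPM scale were 2.49, 2.51 and 2.95. raver1, which encodes an RNA-binding protein, averaged 287 ± 17.0 CPM across PGC libraries and 6.59 ± 4.26 CPM across endoderm libraries. tspan1, a tetraspanin, averaged 112 ± 36.3 CPM across PGC libraries and 3.39 ± 2.74 CPM across endoderm libraries. Endoderm replicate 3, the shallowest library, had the fewest counts of each, as it had for sox7. Its CPM, which are scaled to library size, were also the lowest in endoderm. They were 0.23 for tspan1, 1.81 for raver1 and 0.34 for sox7 Xelaev18028242m. The cause was not tested. The genes were picked by likeness over these same libraries, so this is no separate observation.

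SoxB1 genes rose in PGCs. sox2, a factor of neural and pluripotent cells, had 204, 144 and 155 counts in PGC libraries and 1, 0 and 0 counts in endoderm libraries (Xelaev18002672m). That is 10.8, 8.76 and 9.53 CPM in PGC libraries against at most 0.039 CPM in an endoderm library. The summed counts, 503 in PGCs and 1 in endoderm, give a 512-fold ratio with an exact 95% counting interval of 91.5 to 20272, which covers counting error only. Endoderm replicate 1 held the only endoderm count. Without it sox2 was 87.1-fold higher in PGCs against a floor of 3 counts over the endoderm libraries left. That value also covers counting error only and is no lower bound. The edgeR fit, which includes variation between libraries, gave a 95% interval of 28.6- to 5569-fold. The fitted log2 value was 8.64 ± 1.75 with an edgeR adjusted p of 0.00256, and was lowest, at 6.59, with cyclic loess scaling. No listed gene model had fewer than 150 counts over the 6 libraries, and sox2 reached that total through its PGC counts alone. A gene model as low as this in both groups would not be listed. Among the listed rows, sox2 was the called Sox gene model with the largest fold change. Nearest to it in level over the libraries were fst, which encodes the secreted activin and BMP antagonist follistatin, hmx3 and shox. Their distances were 0.59, 0.63 and 0.76 on the log2 CPM scale, with 0, 0 and 1 counts over the endoderm libraries. That likeness was the ground for picking these genes, so their low endoderm counts are no separate observation.

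sox3, a SoxB1 factor that in Xenopus restrains Nodal genes in the early embryo, was measured as sox3.S and sox3.L. sox3.S stood at 76.5, 74.7 and 68.9 CPM in PGC libraries and 10.8, 3.005 and 4.31 CPM in endoderm libraries. All PGC libraries lay above all endoderm libraries, and the PGC libraries lay close to each other. The difference was 3.59 ± 0.47 on the log2 scale, or 12.0-fold, with an edgeR adjusted p of 0.000103 and a value of 4.398 without endoderm replicate 1. sox3.L stood at 25.4, 37.0 and 49.6 CPM in PGC libraries and 1.32, 0.056 and 10.7 CPM in endoderm libraries, again without overlap. Its difference of 3.26 ± 1.09 had an edgeR adjusted p of 0.0411. That call was lost without any 1 of PGC replicates 1, 2 and 3 or endoderm replicate 1 (3.47, 3.26, 2.99 and 2.89) and at 2.70 with cyclic loess scaling, and the value was 5.70 without endoderm replicate 3. In v7.1 the sox3 row had counts identical to sox3.S in all 6 libraries and rose by 3.63 ± 0.47 (edgeR adjusted p = 4.96e-05).

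**Figure D3:**
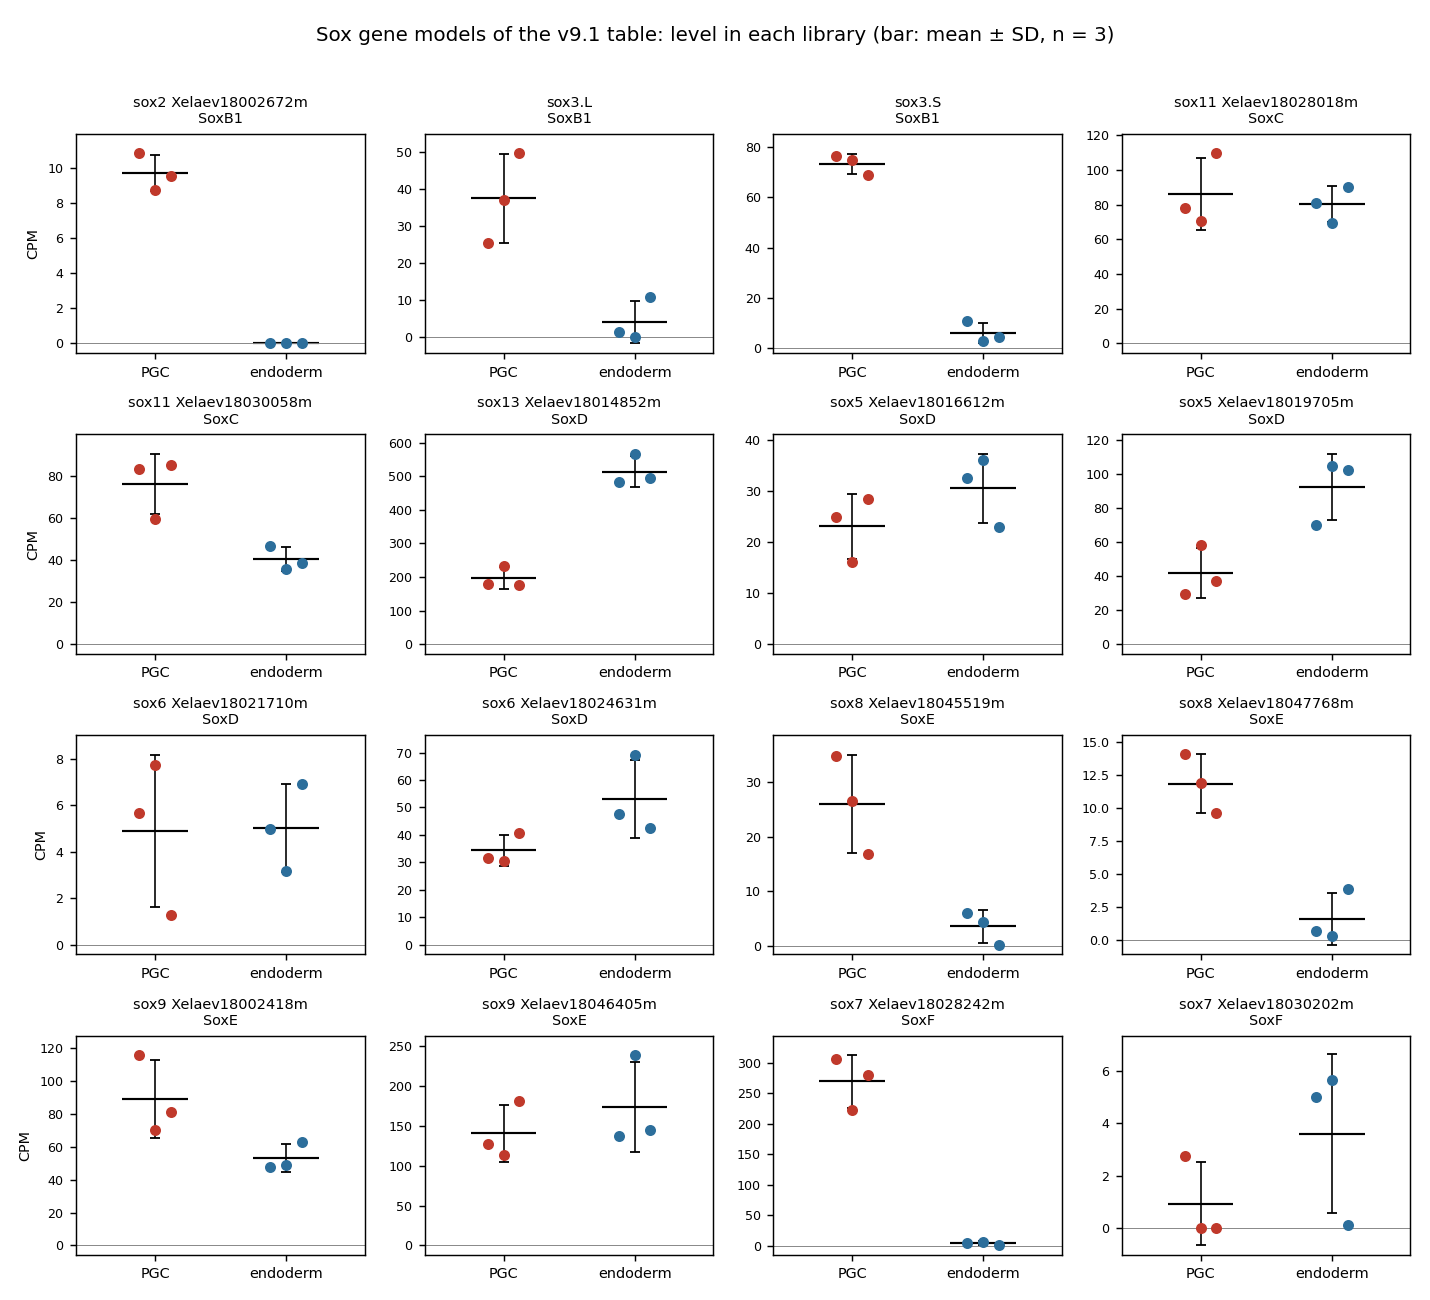
CPM of the 16 v9.1 Sox gene models in each library (points; horizontal bar and whiskers: mean and SD, n = 3 per group), with PGC left of endoderm and a separate linear axis per panel. sox2 and sox7 Xelaev18028242m were close to 0 in endoderm, and sox13 was lower in every PGC library.

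Of the SoxE gene models, 1 of sox8 and 1 of sox9 were higher in PGCs. sox8, an early neural crest factor in Xenopus, stood at 34.8, 26.6 and 16.8 CPM in PGC libraries and 6.03, 4.45 and 0.23 CPM in endoderm libraries in gene model Xelaev18045519m. The groups did not overlap, and the difference of 2.85 ± 0.88 had an edgeR adjusted p of 0.0286. It was lost without PGC replicate 1 or 2 (2.59 and 2.84) and with cyclic loess scaling (2.36), and was 3.49 without endoderm replicate 1. The other sox8 gene model, Xelaev18047768m, stood at 14.1, 11.9 and 9.59 CPM in PGC libraries and 0.62, 0.28 and 3.86 CPM in endoderm libraries. Its difference of 2.92 ± 1.23 did not pass (edgeR adjusted p = 0.0968), although DESeq2's Wald test (2.98) and the fit without endoderm replicate 3 (4.70) called it higher, and the authors' deposited table gives it an FDR of 0.0422.

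sox9, a factor of neural crest, cartilage and testis, differed between its gene models in call but not by a test of the difference. Xelaev18002418m stood at 116, 70.0 and 81.4 CPM in PGC libraries and 47.9, 48.7 and 63.2 CPM in endoderm libraries. The groups lay close but did not overlap, and the difference of 0.74 ± 0.26 passed with an edgeR adjusted p of 0.0457. Dropping PGC replicate 1, PGC replicate 3, endoderm replicate 1 or endoderm replicate 2 ended this call, at 0.51, 0.81, 0.73 and 0.72. Xelaev18046405m stood at 128, 113 and 181 CPM in PGC libraries and 137, 239 and 145 CPM in endoderm libraries, with overlap and a difference of -0.30 ± 0.24 (edgeR adjusted p = 0.393), and its sign turned at 0.12 with cyclic loess scaling. Counts of Xelaev18002418m were identical in all 6 libraries to the v7.1 row that carries the label sox9.L and the deposited symbol sox9-b.

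SoxC genes act in differentiating neurons and are broadly transcribed in early embryos. sox11 Xelaev18030058m stood at 83.6, 59.5 and 85.3 CPM in PGC libraries and 46.7, 35.9 and 38.7 CPM in endoderm libraries, without overlap. It was 1.88-fold higher in PGCs, a log2 difference of 0.91 ± 0.26 with an edgeR adjusted p of 0.0192, and the call was lost without PGC replicate 1 or 3 (0.84 and 0.82). sox11 Xelaev18028018m stood at 78.3, 70.5 and 109.6 CPM in PGC libraries and 81.2, 69.5 and 90.3 CPM in endoderm libraries. These groups overlapped, the difference was 0.10 ± 0.23 (edgeR adjusted p = 0.794), and its 95% interval was -0.40 to 0.60. The v7.1 rows labelled sox11.S and sox11.L had the same counts as the first and the second of these gene models in all 6 libraries.

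sox4, the other SoxC gene measured, was present in v7.1, where 28.9% of gene models were called in either direction. The row labelled sox4.S stood at 72.5, 63.0 and 50.2 CPM in PGC libraries and 24.3, 13.3 and 12.1 CPM in endoderm libraries. All PGC libraries were above all endoderm libraries, by 1.90 ± 0.39 on the log2 scale (edgeR adjusted p = 0.00219), and the call was kept in all 13 alternative settings, at 1.72 to 2.34. The row labelled sox4.L was much sparser, at 7.85, 9.43 and 7.78 CPM in PGC libraries and 7.98, 2.32 and 7.74 CPM in endoderm libraries, with a difference of 0.47 (95% interval -1.79 to 2.74, edgeR adjusted p = 0.790). sox15, known in Xenopus as soxD and the SoxG member, was also measured in v7.1, at 75.4, 111.7 and 89.1 CPM in PGC libraries and 94.4, 76.0 and 101.5 CPM in endoderm libraries. No difference was detectable for it (0.02 ± 0.23, 95% interval -0.48 to 0.53, edgeR adjusted p = 0.955). Of the other v7.1 rows, sox11.S (0.96 ± 0.27, edgeR adjusted p = 0.0152) and sox9.L (0.79 ± 0.26, edgeR adjusted p = 0.0349) were higher in PGCs, and both calls were lost without PGC replicate 1 or PGC replicate 3. The sox9.L call was also lost with endoderm replicate 1 (0.77) or endoderm replicate 2 (0.76) left out. sox11.L (0.15), sox9.S (-0.24) and sox8.L (2.37, edgeR adjusted p = 0.0911, called by DESeq2's Wald test) did not pass. In all, 5 of the 12 v7.1 rows were higher and 1, sox13, was lower in PGCs, where 12.8% and 16.1% of all v7.1 gene models were. The groups did not overlap for 7 of these 12 rows, against 46.5% of all v7.1 gene models.

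SoxD genes fell or did not pass. sox13, a SoxD factor that binds a Tcf protein in mouse, stood at 179, 233 and 174 CPM in PGC libraries and 481, 566 and 493 CPM in endoderm libraries (Xelaev18014852m). Every PGC library was below every endoderm library. It was 2.63-fold lower in PGCs, a log2 difference of -1.39 ± 0.14 with an edgeR adjusted p of 1.3e-05. Gene models of the same decile of mean level had a median of -0.75, and the sox13 difference was -0.70 with cyclic loess scaling (edgeR adjusted p = 0.00318). Over 13 settings, edgeR fits and DESeq2's Wald test together, the sox13 adjusted p was 2.3e-17 to 0.00318. In v7.1 sox13 fell by 1.32 ± 0.17 on the log2 scale (edgeR adjusted p = 5.01e-05), on 37.8 to 47.1% of the v9.1 counts.

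sox5 Xelaev18019705m, a SoxD gene of cartilage and neural crest, stood at 29.8, 58.4 and 37.3 CPM in PGC libraries and 69.9, 104.8 and 102.5 CPM in endoderm libraries. It was lower in every PGC library, with a log2 difference of -1.14 ± 0.30 (edgeR adjusted p = 0.0114), a call lost at -0.82 when libraries were scaled by total counts alone. sox5 Xelaev18016612m stood at 24.8, 16.1 and 28.3 CPM in PGC libraries and 32.5, 36.1 and 23.0 CPM in endoderm libraries, with overlap and a difference of -0.40 ± 0.40 (edgeR adjusted p = 0.501). The v7.1 sox5 row had a difference of -1.52 ± 0.78 (edgeR adjusted p = 0.172). sox6 Xelaev18024631m, whose protein pairs with Sox5 in cartilage, stood at 31.6, 30.6 and 40.9 CPM in PGC libraries and 47.7, 69.3 and 42.4 CPM in endoderm libraries. Its groups did not overlap, but the difference of -0.63 ± 0.31 did not pass (edgeR adjusted p = 0.156). sox6 Xelaev18021710m, at 1.29 to 7.72 CPM in PGC libraries and 3.17 to 6.92 CPM in endoderm libraries, had a 95% interval of -2.64 to 2.58, which allows a change in either direction.

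Among the 7 Sox symbols with 2 gene models, sox7 was the only pair whose PGC over endoderm ratios differed by edgeR's test. For sox9 the difference of Xelaev18046405m minus Xelaev18002418m was -1.01 ± 0.38 (edgeR adjusted p = 0.141), and for sox11 that of Xelaev18028018m minus Xelaev18030058m was -0.82 ± 0.34 (edgeR adjusted p = 0.179). Neither difference passed. Xelaev18046405m gave 52.4 to 69.0% of sox9 counts in PGC libraries and 69.6 to 83.1% in endoderm libraries, which nearly met. Xelaev18028018m gave 48.4 to 56.2% of sox11 counts in PGC libraries and 63.5 to 70.0% in endoderm libraries. How often the shares of a pair do not overlap over all pairs is not given here, so no difference is read from these ranges. For sox3, sox5, sox6 and sox8 the edgeR adjusted p of the difference was 0.664, 0.455, 0.847 and 0.827. Within endoderm, replicate 3 stood apart for sox3 and sox8. sox3.S gave 89.1%, 98.2% and 28.8% of sox3 counts in endoderm replicates 1, 2 and 3, and Xelaev18045519m gave 90.6%, 94.1% and 5.56% of sox8 counts. In PGC libraries the same shares were 58.1 to 75.1% and 63.7 to 71.2%. Such swings between libraries of a group exceed the binomial intervals, which cover counting error only. How reads that match both homeologs were assigned was not stated, so the pair shares are uncertain.

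**Figure D4:**
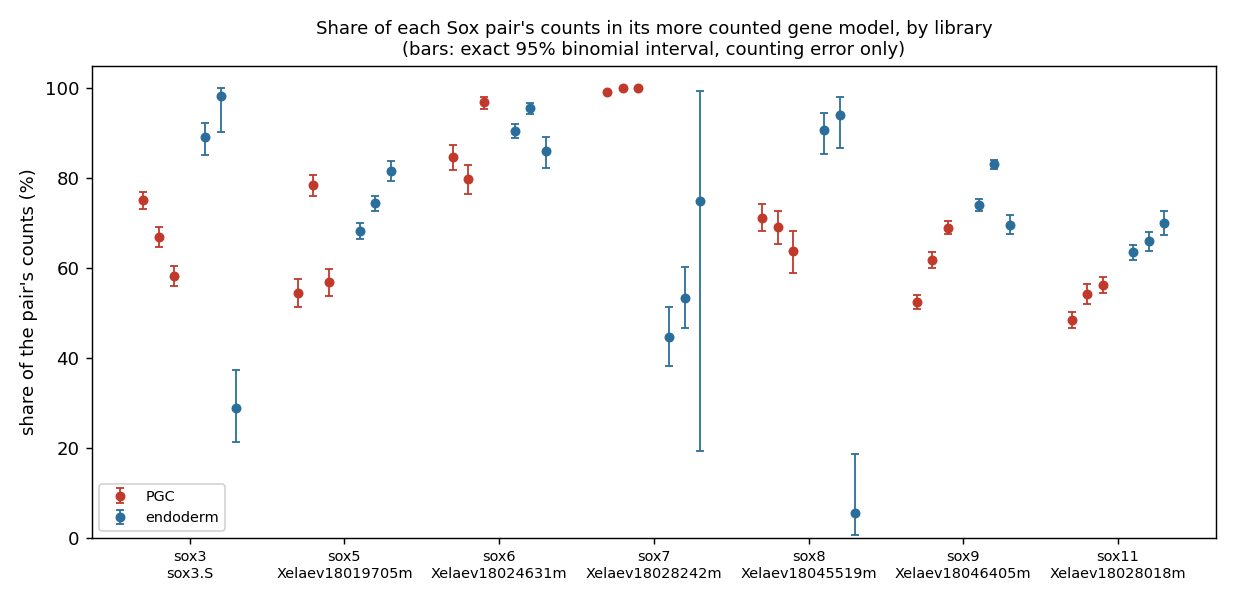
Share of each Sox pair's counts that fell on its more counted gene model, named under the symbol, in each library of the v9.1 table (PGC red, left; endoderm blue, right; bars: exact 95% binomial interval). sox7 is near 100% in PGCs and 44.6 to 75.0% in endoderm, and sox3 and sox8 have a lone low library in endoderm.

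Endoderm, neural plate, neural crest, pluripotency and Wnt pathway genes were counted in lists, chosen with earlier results of these data known. Membership of a list implies no known link of each gene to a Sox protein. Across all v9.1 gene models 12.6% were called higher and 16.8% lower. Of 23 gene models of endoderm and Nodal genes, 3 were higher and 12 lower in PGCs, with a median of -0.57, and 5 were higher and 4 lower with cyclic loess scaling. mixer (Xelaev18026298m), an endoderm homeobox gene, averaged 127 ± 19.7 CPM across PGC libraries and 14.5 ± 8.22 CPM across endoderm libraries (3.15 ± 0.37, edgeR adjusted p = 4.4e-05). foxa1 (Xelaev18041048m), a forkhead pioneer factor of endoderm, averaged 136 ± 26.2 CPM across PGC libraries and 488 ± 60.3 CPM across endoderm libraries (-1.84 ± 0.16, edgeR adjusted p = 3.4e-06; -1.22 with cyclic loess scaling).

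Of 18 gene models of neural plate genes, 8 were higher and 2 lower in PGCs, with a median of 1.46. They summed to 1347 to 1383 CPM in PGC libraries and 923 to 1086 CPM in endoderm libraries. The larger part of both sums came from the 2 gmnn gene models. These averaged 343 and 510 CPM across PGC libraries and 102 and 546 CPM across endoderm libraries. pou3f1, listed through its PGC counts alone, had 0 counts in endoderm. In v7.1 the direction of the sum was the opposite, with 1757 to 1783 CPM in PGC libraries and 2477 to 2654 CPM in endoderm libraries, while 8 of 20 gene models were higher and 2 lower, with a median of 2.14. zic1 (Xelaev18027743m), a zinc-finger gene of the neural plate, averaged 80.3 ± 7.04 CPM across PGC libraries and 13.6 ± 8.75 CPM across endoderm libraries (2.58 ± 0.44, edgeR adjusted p = 0.000818; 3.21 without endoderm replicate 3). pax6.S, a homeobox gene of eye and brain, averaged 15.5 ± 6.63 CPM across PGC libraries and 0.24 ± 0.33 CPM across endoderm libraries (5.82 ± 1.32, edgeR adjusted p = 0.00541; 3.89 with cyclic loess scaling and 7.74 without endoderm replicate 1). Of 12 gene models of neural crest genes, 6 were higher and 1, snai1, was lower, with a median of 2.26. The higher ones were 2 gene models each of twist1, msx1 and msx2. The lower call was lost with cyclic loess scaling. msx2 (Xelaev18021422m), a homeobox gene of the neural plate border, averaged 54.2 ± 8.497 CPM across PGC libraries and 8.72 ± 6.60 CPM across endoderm libraries (2.62 ± 0.65, edgeR adjusted p = 0.00888). twist1 (Xelaev18030956m), a bHLH gene of neural crest and mesoderm, averaged 53.7 CPM across PGC libraries and 0.052 CPM across endoderm libraries (edgeR adjusted p = 1.7e-06). The neural crest list summed to 698 to 868 CPM in PGC libraries and 644 to 748 CPM in endoderm libraries. Of this, snai1 averaged 346 CPM across PGC libraries and 566 CPM across endoderm libraries. In v7.1 14 of 23 gene models of the list were higher and 2 lower. Among markers of other layers, mesoderm markers summed to 226 to 317 CPM in PGC libraries and 164 to 215 CPM in endoderm libraries with 3 of 10 higher, and epidermis and ectoderm markers to 223 to 234 CPM in PGC libraries and 262 to 312 CPM in endoderm libraries with 2 of 5 higher and 1 lower. Leaving out PGC replicate 3 left 0 of these higher, and leaving out PGC replicate 1, PGC replicate 2 or endoderm replicate 1 left 1. The lower one, grhl2 (Xelaev18032256m), made up the larger part of the epidermis and ectoderm sums. It averaged 162 CPM across PGC libraries and 264 CPM across endoderm libraries. In v7.1 epidermis and ectoderm markers summed to 203 to 237 CPM in PGC libraries and 39.8 to 52.3 CPM in endoderm libraries, with 4 of 5 higher, 0 lower and a median of 3.303, and mesoderm markers to 194 to 238 CPM in PGC libraries and 158 to 195 CPM in endoderm libraries, with 1 of 7 higher. Of all gene models 12.6% were higher and 16.8% lower in v9.1, and 12.8% and 16.1% in v7.1. The part of any other cell type in the levels of sox2, sox3 and sox8 was not tested.

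Pou5f3, the Xenopus relatives of Oct4, and other pluripotency factors differed in direction between the tables, which hold different gene models of the list. Of 9 gene models in v9.1 1 was higher, or 2 without endoderm replicate 2, and 6 were lower, with a median of -1.101. Of 13 in v7.1 7 were higher and 3 lower, with a median of 1.099, where 12.8% and 16.1% of all v7.1 gene models were. pou5f3.1.S, the Oct4-related partner of SoxB1 proteins, averaged 53.6 ± 8.03 CPM across PGC libraries and 149 ± 33.8 CPM across endoderm libraries (-1.47 ± 0.22, edgeR adjusted p = 0.000285). lin28a (Xelaev18012112m), an RNA-binding pluripotency factor, averaged 460 ± 49.6 CPM across PGC libraries and 1314 ± 68.5 CPM across endoderm libraries (-1.51 ± 0.10, edgeR adjusted p = 3e-07; -0.48 with cyclic loess scaling). prdm14 (Xelaev18032099m), a chromatin regulator of germ cell specification in mouse, was the gene that rose in v9.1, with a mean of 15.8 ± 1.45 CPM across PGC libraries and 0.21 ± 0.36 CPM across endoderm libraries. Of 17 gene models of Wnt and Tcf/Lef pathway genes, edgeR called 0 higher and 4 lower. Across all v9.1 gene models 12.6% were higher and 16.8% lower. Of the 17, 1 was higher at an unadjusted p below 0.05, 1 by DESeq2's Wald test and 2 with cyclic loess scaling. The 4 lower calls were 1 with total-count scaling and 2 without endoderm replicate 1 or 3. tle4 (Xelaev18010139m), a Groucho corepressor of Tcf, averaged 79.1 ± 27.1 CPM across PGC libraries and 236 ± 23.2 CPM across endoderm libraries (-1.58 ± 0.23, edgeR adjusted p = 0.000215).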

How the data were processed

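RNA of PGCs and endoderm was read as 100-bp paired ends after ribosomal RNA depletion, per the labels' protocols. Software named in the submitters' processing notes was edgeR 3.12.0, HTSeq 0.6.0, SAMtools 1.2, Bowtie2 2.2.6 and TopHat2 2.1.0, listed without roles. Build, strand setting and handling of reads with several matches were not stated. The deposited tables hold whole-number read counts per gene model, with a smallest total of 150 over the 6 libraries. The deposited normalized signal columns are counts divided by a constant per library and were not used in tests. The deposited log2 columns and the deposited p-value and FDR columns are the authors' comparison of endoderm over PGC, per the file headers. No per-sample column was without a sample.

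Counts were tested with edgeR 4.0.16 (limma 3.58.1, R 4.3.3): TMM scaling, filterByExpr (minimum count 10, total 15, which removed 0 gene models), the quasi-likelihood test with cell type as the term, two-sided, with Benjamini-Hochberg adjustment at 0.05 over each table. Pairs were the symbols with exactly 2 gene models, tested by the interaction of gene model and cell type with library as block. Intervals are 95%. Alternatives were DESeq2 1.42.0 and its size factors, total-count scaling, cyclic loess offsets that vary with expression level, no filter or at least 50 counts in 3 libraries, a replicate block and leaving out each library. Applying them to the lists was decided after seeing the data. The members, lists and tests were chosen with earlier results of these data known. All Sox rows are named, and list members by size of change (at most 4 per list above a mean of 5 CPM, of which several are left unnamed in the text). The tests were tried on simulated counts. Between libraries of a group the chi-square per degree of freedom was 40.6 to 68.3 in v9.1, so no library was a copy of another. Total counts were 8.6 to 24.6 M in v7.1.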

Additional observations from a re-analysis of the deposited data

How the results depend on the processing

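Of the 9 called Sox gene models of v9.1, 4 kept their call in all 13 alternatives (sox2, sox3.S, sox13 and sox7 Xelaev18028242m), and of 6 in v7.1, 4 did (sox3, sox4.S, sox13 and sox7). The number of Sox gene models higher in PGCs was 3 to 8 in v9.1 and 3 to 5 in v7.1 when single libraries were left out, and 5 to 8 and 4 to 6 under the other settings, against 7 and 5. Total-count scaling left 1 of 2 Sox gene models lower in v9.1. Of all v9.1 gene models 1301 were higher and 1739 lower in PGCs, against 1932 higher and 1117 lower with total-count scaling and 1324 higher and 1145 lower with cyclic loess scaling. The median log2 difference of all gene models was 0.07, and 0.39 and -0.04 under these scalings. The cause was not tested. No sign change touched a called gene model. sox6 Xelaev18021710m turned to 0.013 with DESeq2 size factors, 0.28 with total-count scaling and 0.014 by DESeq2's Wald test, and ranged from -0.52 to 0.42 without single libraries. sox9 Xelaev18046405m turned to 0.017 with total-count scaling and 0.12 with cyclic loess scaling (0.14 for its v7.1 row), and ranged from -0.53 to 0.030 without single libraries (-0.40 to 0.074 in v7.1). Without single libraries sox11 Xelaev18028018m ranged from -0.11 to 0.23 (-0.064 to 0.27 in v7.1), sox15 from -0.14 to 0.15, and the pair differences of sox3 from -2.75 to 0.16, of sox6 from -1.20 to 0.26 and of sox8 from -2.50 to 1.09. Same-numbered PGC and endoderm libraries did not deviate together (correlations of 0.013, 0.0026 and -0.013 in v9.1). The labels do not say whether equal numbers mark a shared collection, and these correlations cannot settle it. The main fit did not pair the libraries. With the replicate block 6 Sox gene models were higher and 2 lower in v9.1, and 4 and 1 in v7.1. The call lost was that of sox9 Xelaev18002418m (0.72) and its v7.1 row (0.77). The block gave 1187 higher and 1682 lower of all v9.1 gene models. sox7 Xelaev18030202m (52, 0 and 0 counts in PGC libraries) and sox6 Xelaev18021710m (107, 127 and 21) spread widely between libraries of a group, and their intervals are wide.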
